A study of Homo sapiens with 12 samples.

Results

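Isolated wide knockout-only peaks are stretches of the genome called as enriched for trimethylated lysine 9 of histone H3 (H3K9me3) in 293T cells without SMARCA3 and far from any stretch called in wild-type 293T cells. They were taken from the authors' list of SMARCA3 knockout (KO) peaks by 4 conditions. A peak had to lie on chromosomes 1 to 22, to be at least 1000 bp wide, and to have no wild-type (WT) peak within 5000 bp. It also had to lie outside chromosome 19 and outside chromosome 7 from 55 to 65 Mb, chromosome 14 from 39.5 to 44.7 Mb and chromosome 21 from 17.9 to 25.4 Mb. Of the 65170 KO peaks, 772 met these conditions, which is 1.18% of the KO peaks and 1.91% of their bases. The series holds 112068 peaks in both lists together.

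The study compared 293T cells carrying a SMARCA3 knockout with unmodified WT 293T cells, and no treatment is given for either group. The 293T line comes from human embryonic kidney and expresses the SV40 large T antigen, and the labels do not say whether the KO cells are 1 clone. SMARCA3, now named HLTF, is a DNA translocase of the SNF2 family with a RING finger of the kind found in ubiquitin ligases. Each genotype had 3 ChIP libraries, precipitated with an antibody to H3K9me3, and 3 input libraries, but the files give 1 peak list per genotype, so the read depth is unknown and the spread between cultures could not be measured. No p-value was computed between genotypes, and the intervals below are 95% intervals that cover counting error alone and treat peaks as independent. The targeted gene on chromosome 3 (149030063 to 149086533, hg38) held no KO and no WT peak, and the nearest isolated wide KO-only peak lay 1874969 bp away.

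H3K9me3 is the mark of constitutive heterochromatin. It is written by enzymes such as SUV39H1 and SETDB1, is bound by HP1 proteins, and is known to cover satellite repeats, retroelements and the clustered genes of KRAB zinc finger proteins. The mark can spread along the chromatin fibre from the place where its enzyme is recruited.

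At the starts of genes the isolated wide peaks fell on CpG-poor sequence, as did the other peaks of both lists. They were set beside the 11536 wide KO peaks of the same chromosomes that overlap a WT peak, called overlapping wide peaks here. RefSeq gives 31689 promoter windows outside the excluded stretches, each from 250 bases before to 50 bases after a gene's start. Isolated wide peaks met 9 of them, overlapping wide peaks met 39, all KO peaks met 141 and all WT peaks met 73. Of the 9 windows, 7 belong to noncoding and 2 to protein-coding genes. Protein-coding genes had 10 of the 39 windows, 45 of the 141, 16 of the 73 and 19555 of all 31689, so a low share was common to the peak sets. CpG is the dinucleotide whose clusters mark most constitutive promoters. In the 9 windows the ratio of observed to expected CpG ran from 0.0682 to 0.498 with a median of 0.181, against a median of 0.110 in the windows of the overlapping peaks and 0.569 in all windows. The median was 0.164 in windows met by any KO peak and 0.116 in those met by any WT peak. A ratio below 0.5 was found in 9 of 9 windows, in 92.3% of those met by an overlapping peak and in 46.7% of all windows. It was found in 84.4% of those met by any KO peak and 91.8% of those met by any WT peak, so it is not particular to the isolated peaks.

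These sequences are shown because 4 of the 9 windows share a stretch: they hold the 8 letters CTGATTGG or their reverse complement CCAATCAG, which contain the CCAAT box in reverse and forward orientation. The motif was picked by eye from the sequences of windows met by isolated peaks and searched afterwards on both strands, so its count in these windows is a description. No repeat annotation was used, and whether the shared stretch belongs to a repeat family was not tested. It was present in 0 of 39 windows met by overlapping wide peaks (upper Wilson bound 8.97%), in 0 of 73 windows met by any WT peak, in 3.72% of all windows and in 2.64% of all windows with a CpG ratio below 0.5. The 250 bases before each start are given for those 4 windows, from RefSeq on GRCh38.p14, 5′ to 3′ on the strand of the gene, with CTGATTGG and CCAATCAG in capitals.
LOC107985420 (chr1:95370011-95370260, plus strand): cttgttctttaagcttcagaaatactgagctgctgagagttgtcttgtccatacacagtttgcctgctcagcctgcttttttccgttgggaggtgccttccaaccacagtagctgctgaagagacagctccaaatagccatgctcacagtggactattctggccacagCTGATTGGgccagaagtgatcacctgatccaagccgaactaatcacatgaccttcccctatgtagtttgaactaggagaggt
MROH2A (chr2:233775474-233775723, plus strand): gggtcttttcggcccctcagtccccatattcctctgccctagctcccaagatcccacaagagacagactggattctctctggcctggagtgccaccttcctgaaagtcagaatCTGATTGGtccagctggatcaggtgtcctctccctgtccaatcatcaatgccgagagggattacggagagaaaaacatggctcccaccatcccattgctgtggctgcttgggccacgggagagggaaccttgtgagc
LINC00839 (chr10:42475241-42475490, plus strand): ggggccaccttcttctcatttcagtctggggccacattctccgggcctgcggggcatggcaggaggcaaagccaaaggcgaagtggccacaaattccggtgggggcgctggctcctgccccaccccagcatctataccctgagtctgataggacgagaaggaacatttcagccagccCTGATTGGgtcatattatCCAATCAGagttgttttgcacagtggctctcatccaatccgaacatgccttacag
LINC02169 (chr16:54270880-54271129, minus strand): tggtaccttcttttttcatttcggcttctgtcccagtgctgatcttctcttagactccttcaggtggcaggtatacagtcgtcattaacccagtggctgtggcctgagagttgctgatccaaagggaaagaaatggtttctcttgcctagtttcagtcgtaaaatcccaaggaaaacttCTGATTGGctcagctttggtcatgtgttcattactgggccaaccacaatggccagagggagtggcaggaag

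The isolated wide peak that met the LINC02169 window had a fold of 5.34 and a width of 1136 bp, and that at MROH2A had a fold of 2.62 and a width of 1010 bp. The peaks at LOC107985420 and LINC00839 had folds of 3.04 and 2.99. The motif lay inside the isolated peak in 3 of the 4 windows, and at LINC00839 its copies lay 121 and 139 bp beyond the end of the peak. Of the 32 isolated peaks within 1 kb of a transcript start, 4 were assigned to protein-coding genes. Besides MROH2A these were CCDC129 (fold 2.95), CCR6, which encodes a chemokine receptor (fold 2.87), and RFPL3 (fold 2.09), and their nearest WT peaks were 288202, 32072 and 234194 bp away. The CCDC129 and CCR6 peaks met no RefSeq promoter window. They began at 31515642 and 167119694, inside the RefSeq genes, which start at 31514090 and 167111795. These 4 genes had 2, 2, 1 and 1 KO peaks for MROH2A, CCDC129, CCR6 and RFPL3 and no WT peak.

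Both lists were used to choose these peaks, so their widths, folds and number describe the choice and support nothing by themselves. On chromosomes 1 to 22 outside the excluded stretches, 54051 KO peaks were called, and 25.4% of them had no WT peak within 5000 bp. Among the 12782 of these KO peaks that were wide, 772 were isolated, or 6.04% (5.64 to 6.47), 474 lay within 5000 bp of a WT peak without touching it, and 11536 overlapped one. The same conditions turned round gave 62 isolated wide WT-only peaks among 7328 wide WT peaks, or 0.846% (0.661 to 1.08). The ratio of 772 to 62 was 12.5 (9.62 to 16.1). It was 3.56 when the KO list was cut by q-value to the 46898 peaks of the WT list, and 2.49 among peaks of both lists at or above their pooled median fold of 3.69, so its size depends on how the lists are matched.

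The isolated peaks were narrow for wide peaks. Their widths ran from 1000 to 3561 bp with a median of 1217 bp, whereas wide KO peaks that overlapped a WT peak had a median of 1596 bp. The fold enrichment, which is the authors' value for each peak over a background that the files do not define, had a median of 3.75 with quartiles of 3.08 and 4.35, and a median of 4.51 in the overlapping wide peaks. The highest isolated fold was 6.75. Of the 772 peaks, 376 (48.7%) reached 3.77, which was the median of WT peaks of any width, and 59 (7.64%) were at or above 5. The median of KO peaks of any width was 3.59. Whether folds of both lists share a scale is not known.

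**Figure D1:**
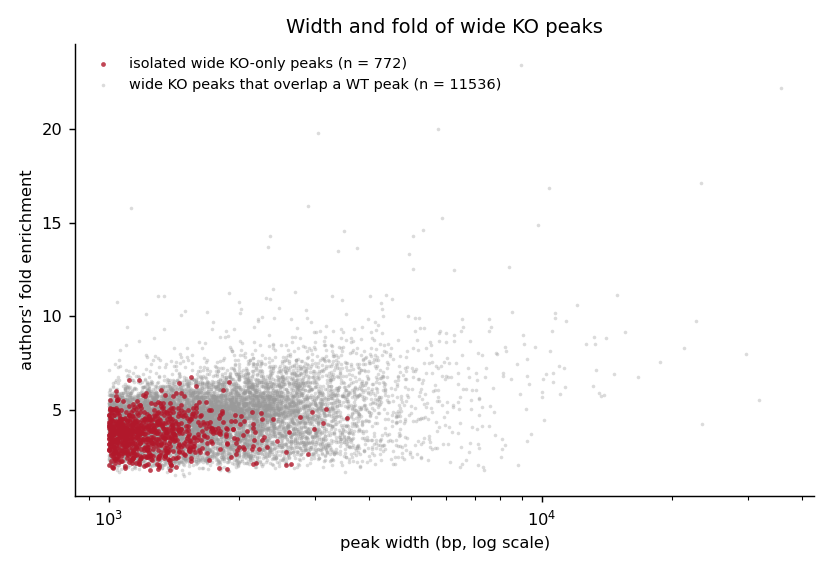
Width in bp on a log scale (x axis) and the authors' fold enrichment (y axis) of each isolated wide KO-only peak (red, 772 peaks) and of each wide KO peak that overlaps a WT peak (grey, 11536 peaks). The red points stop at 3561 bp and a fold of 6.75, and the grey points reach a fold of 23.4.

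The isolated share of wide KO peaks was lower at higher fold. It was 12% (10.5 to 13.8) below fold 3, 10.4% from 3 to 4, 5.2% from 4 to 5, 2.0% from 5 to 6 and 0.618% (0.326 to 1.17) from 6 upward, where 9 of 1456 peaks were isolated. The isolated share of wide WT peaks did not fall steadily: it was 0.958% below fold 3, 1.13% from 3 to 4, 1.28% from 4 to 5, 0.284% from 5 to 6 and 0.111% from 6 upward. By width the KO share was 10.2% from 1000 to 1500 bp and 0.252% from 3000 bp, where 3 of 1189 peaks were isolated. These shares describe the choice, since both the fold and the width come from the same calls.

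**Figure D2:**
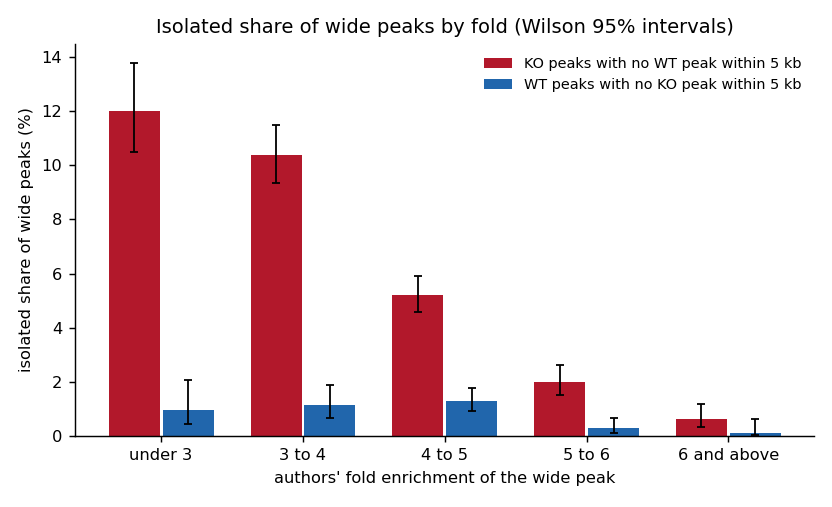
Share of wide peaks (y axis, %) with no peak of the other genotype within 5 kb, by the authors' fold enrichment of the peak (x axis), for KO peaks (red) and WT peaks (blue), with Wilson 95% intervals. The KO share was 12% below fold 3 and 0.618% from fold 6, and the WT share was at most 1.28% in each class.

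The 3 isolated peaks nearest to a WT peak were 5043, 5090 and 5127 bp away with folds of 3.17, 4.51 and 3.24, and the 3 wide KO peaks that missed this limit most narrowly were 4995, 4987 and 4955 bp away with folds of 4.82, 4.65 and 4.21. There were 221 isolated wide peaks under 1100 bp, and 316 peaks of 900 bp or more missed the width limit alone. The median distance to the nearest WT peak was 33149 bp, and 150 peaks were over 100 kb and 12 over 1 Mb from one.

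Of the 9 isolated peaks with a fold of 6 or more, 8 were intergenic, against 52.7% of all 772, and the other one lay within 1 kb of the start of a lincRNA gene. The first in rank was on chromosome 14 (52180357 to 52181908), with a fold of 6.75, a q-value of 2.3e-27 and the nearest WT peak 6976 bp away. The nearest other isolated wide peak to it was 1061285 bp away. The next was on chromosome 1 (80582883 to 80584055), near the start of the lincRNA gene AL136234.1, at a fold of 6.60, and was followed by an intergenic peak of equal fold on the same chromosome (221232976 to 221234090). An intergenic peak of 1895 bp on chromosome 21 (39144816 to 39146710) had a fold of 6.51 and lay 380 bp from another isolated wide peak. Of the isolated peaks that the authors assigned to protein-coding genes, the strongest were those of DKK2, which encodes a secreted modulator of Wnt signalling (fold 5.83), and of FMN1, a formin gene, and ADAMTS18, a gene of a secreted metalloprotease (fold 5.75 in both). The FMN1 peak lay inside the RefSeq gene, and the DKK2 and ADAMTS18 peaks lay outside theirs. From the FMN1 peak the nearest WT peak was 1000078 bp away. The widest isolated peak, 3561 bp at a fold of 4.58, was in an intergenic part of chromosome 18 (40633171 to 40636731).

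The position of the isolated peaks relative to genes was not used to choose them, and it differed from that of the overlapping wide KO peaks. Of the isolated peaks 52.7% were intergenic and 36.5% lay in gene bodies, against 46.9% and 45.0% of the overlapping peaks. The difference was 5.77 percentage points (2.13 to 9.39) for intergenic positions and -8.44 points (-11.9 to -4.87) for gene bodies, where a negative value means fewer isolated peaks. Promoter classes, which reach 3 kb from a transcript start, held 10.8% (8.76 to 13.1) of the isolated and 7.77% (7.29 to 8.27) of the overlapping peaks, a difference of 2.98 points (0.928 to 5.41). Among peaks of 1000 to 1500 bp in both sets, a comparison added after seeing that the isolated peaks were narrower, the difference was 3.26 points (0.906 to 6.06). In the 35 isolated peaks of 2000 bp or more it was -4.58 points (-7.09 to 7.13). Narrow isolated KO-only peaks, 12938 in number, had 8.95% in the promoter classes, and the difference from the wide ones, 1.80 points, had an interval that includes 0 (-0.256 to 4.23). The same holds for intergenic positions, at 1.79 points (-1.84 to 5.4), and for gene bodies, at -3.37 points (-6.8 to 0.187). The 62 isolated wide WT-only peaks leaned the same way, with 59.7% (47.3 to 71.0) intergenic, 29.0% (19.2 to 41.3) in gene bodies and 11.3% (5.58 to 21.5) in promoter classes, so these shares are not shown to be particular to KO.

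Protein-coding genes took 26.8% of the isolated and 36.3% of the overlapping wide KO peaks, a difference of -9.50 points (-12.6 to -6.15), and 29.0% (19.2 to 41.3) of the isolated WT-only peaks. Narrow isolated KO-only peaks had 30.5% at protein-coding genes, and the wide ones differed from them by -3.68 points (-6.79 to -0.35). Long intergenic noncoding RNA genes took 9.33% of the isolated and 7.23% of the overlapping wide peaks, a difference of 2.10 points (0.179 to 4.4). They took about the same share of the narrow isolated peaks, 9.34% (difference -0.0104 points, -1.93 to 2.3), and 1.61% (0.285 to 8.59) of the isolated WT-only peaks. Around the isolated peaks protein-coding genes were also sparser, since 32.8% (29.6 to 36.2) had none within 100 kb, against 27.2% (26.4 to 28.0) of the overlapping peaks. Of the isolated WT-only peaks 46.8% (34.9 to 59.0) had none, so this is not shown to be particular to KO. None of the isolated peaks was in the authors' subtelomeric class, with an upper Wilson bound of 0.495%, and 0.312% of the overlapping peaks were.

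Joined over gaps of at most 100 kb, the 772 peaks formed 694 groups, of which 629 held a single peak, 58 held 2 and 7 held 3 to 5. Another isolated wide peak lay within 100 kb of 18.5% (15.9 to 21.4) of them, and within 5 kb of 7.38%. The same shares were 77.5% and 27.3% for the overlapping wide peaks and 11.3% and 0% for the isolated WT-only peaks, but the 3 sets differ in size, and a larger set has closer neighbours. A KO peak of any width lay within 5 kb of fewer isolated than overlapping peaks, since 56.5% (53.0 to 59.9) had no other KO peak so near, against 33.8% (32.9 to 34.6). Of the isolated WT-only peaks 71.0% (58.7 to 80.8) had no other WT peak within 5 kb. At the wider range of 50 kb, 38.5% of the isolated peaks still had no WT peak.

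A few groups formed short stretches with several KO peaks and no WT peak. Peaks within 5000 bp of a WT peak were left out, so this absence follows largely from the choice. On chromosome 6 from 120006672 to 120021866, 5 isolated wide peaks with folds from 4.21 to 5.13 stood among 11 KO peaks in 15.2 kb, and the nearest WT peak to any of the 5 was 39065 bp away. Gaps between neighbours there were as small as 55 bp, and whether such neighbours belong to 1 domain was not tested. The stretch surrounds the microRNA gene MIR3144, and a narrower KO peak covers its hairpin (120015179 to 120015257), while the nearest isolated wide peak was 982 bp away. On chromosome 1 from 74739379 to 74746749, 4 isolated wide peaks lay in 7.37 kb inside TYW3, a gene of wybutosine synthesis in transfer RNA, with folds of 3.71, 3.81, 3.26 and 4.70. All 7 peaks assigned to TYW3 were KO peaks, and they covered 6636 bases. Another such group of 3 peaks, 12 kb long with folds from 3.74 to 4.98, was intergenic on chromosome 1 (104655001 to 104666962). It held no further KO peak, and 4 WT peaks lay within 50 kb of it.

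**Figure D3:**
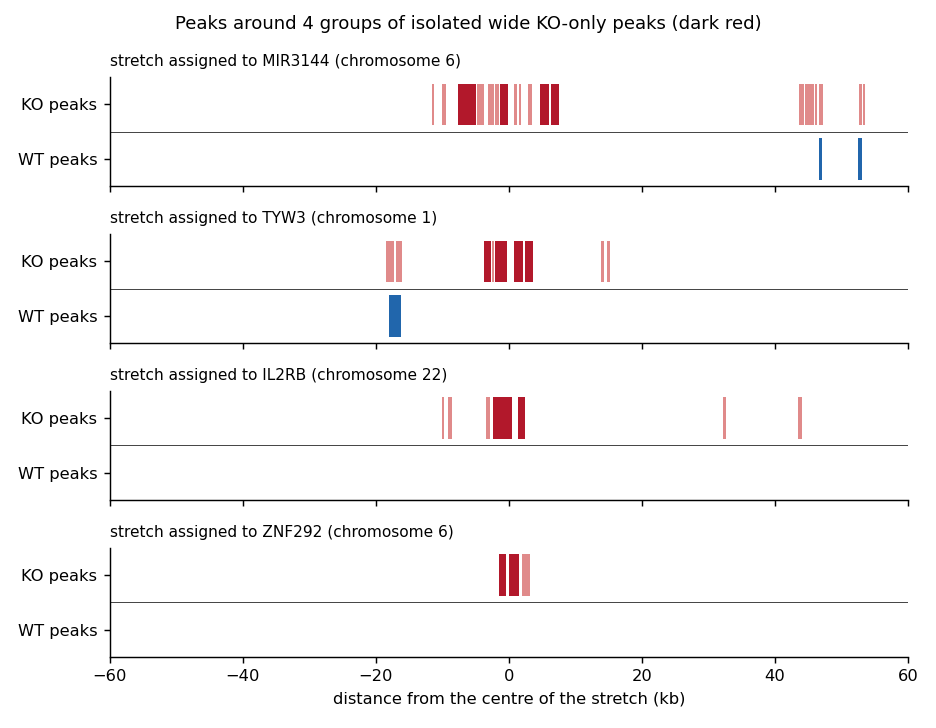
Position of KO peaks (upper row of each panel) and WT peaks (lower row, blue) around 4 groups of isolated wide KO-only peaks, by distance in kb from the centre of the group (x axis), with members of the group in dark red and other KO peaks in light red. The stretches at IL2RB and ZNF292 have no WT peak in the 120 kb shown, and those at MIR3144 and TYW3 have WT peaks only beyond 39065 and 12545 bp.

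The other large groups were looser or lay in duplicated sequence. On chromosome 22 from 47894682 to 47989319, 4 isolated wide peaks were spread over 94.6 kb with 14 KO peaks and 2 WT peaks. On chromosome 15 from 20272182 to 20418629, 5 isolated wide peaks stood among 42 KO peaks over 146 kb, and the nearest WT peak was 3195727 bp away. Of these, 3 were assigned to HERC2P3, a pseudogene of HERC2 with 17 KO peaks and no WT peak. HERC2 has several near-identical copies, and the handling of reads that map to more than 1 place is not given in the sources used here, so the place of these peaks is uncertain. The same holds for 3 isolated wide peaks near the centromere of chromosome 21 (10548189 to 10639486), 2 of them assigned to the duplicated gene TPTE, in a stretch with 25 KO peaks and no WT peak but with 28 WT peaks once 50 kb on either side are added.

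MicroRNAs were the assigned genes of 2 isolated wide peaks. That at MIR154 was 1201 bp wide with a fold of 4.08 and lay in the imprinted microRNA cluster of chromosome 14, with 7 hairpins within 3 kb of it and none covered. With the hairpin of MIR3144, 8 of the 1560 hairpins in the RefSeq table lay within 3 kb of an isolated wide peak and 0 were met by one. The mature products of both assigned genes are shown to identify them, from RefSeq on GRCh38.p14, with the seed (bases 2 to 8) in capitals, and the 4 seeds differ.
hsa-miR-3144-5p (chr6:120015191-120015212, plus strand): aGGGGACCaaagagauauauag
hsa-miR-3144-3p (chr6:120015226-120015247, plus strand): aUAUACCUguucggucucuuua
hsa-miR-154-5p (chr14:101059769-101059790, plus strand): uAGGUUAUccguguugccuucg
hsa-miR-154-3p (chr14:101059805-101059826, plus strand): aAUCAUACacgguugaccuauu

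By chromosome the isolated share of wide KO peaks ranged from 3.12% (2.18 to 4.45) on chromosome 13, with 29 of 929, to 12% (8.16 to 17.4) on chromosome 21, with 23 of 191. Chromosomes 22 and 20 followed at 10.6% (7.2 to 15.5) and 9.76% (6.4 to 14.6). Chromosome 6 had the most isolated peaks, 78, but at 5.88% of its wide KO peaks its interval (4.74 to 7.28) includes the 6.04% of all chromosomes. Chromosome 3 held 76 (8.09%, 6.51 to 10.0) and chromosome 1 held 74 (4.4%, 3.52 to 5.48). The highest values were on small chromosomes, but chromosomes 18 and 16 had 5.57% and 6.69%, and the neighbours in this order had intervals that overlap. The number of WT peaks, from which the distance is taken, also differed. Chromosome 13 had 884 wide WT peaks beside its 929 wide KO peaks. Chromosomes 21, 22 and 20 had 116, 74 and 92 beside 191, 216 and 205. Its part in these shares was not tested. The 23 on chromosome 21 include the 3 near its centromere whose place is uncertain. They also include peaks nearer to the start of the chromosome, at 8993190 to 8994612 and 9763179 to 9764685. The first isolated peak of chromosome 22 lies at 10753338 to 10754505. Whether the place of these further peaks is certain was not tested.

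**Figure D4:**
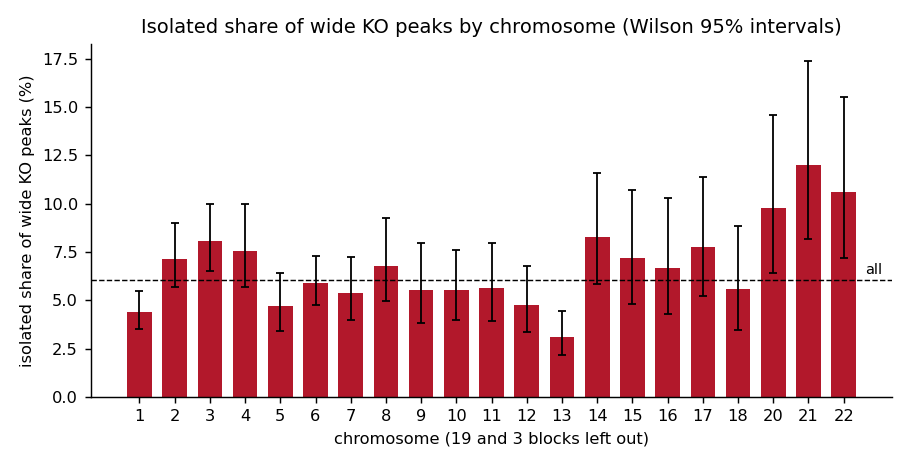
Isolated share of wide KO peaks (y axis, %) on each chromosome (x axis) outside the excluded stretches, with Wilson 95% intervals and a dashed line at the value of all chromosomes, 6.04%. Chromosomes 21, 22, 20 and 3 were above the line and chromosomes 13 and 1 below it, with intervals that leave it out.

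At the level of genes, 365 isolated wide peaks were assigned to 327 genes of all types, and the remaining 407 had no assigned gene. Of the 327 genes, 197 also had a WT peak elsewhere and 130 had none. The protein-coding ones numbered 182, which is 1.03% of the 17621 protein-coding genes compared, whereas 2087 genes, 11.8%, had a wide KO peak that overlapped a WT peak, and 107 of the 182 were among these. Genes with an isolated wide peak were long, with a median of 221 kb, against 125 kb for those with an overlapping one and 26.3 kb for all, and a longer gene has more room for a peak.

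Few genes had more than 1 isolated wide peak. There were 32 with at least 2, 19 of them protein-coding. RUNX1, which encodes a transcription factor of blood cell formation, had the most by assignment, 5 with folds from 2.97 to 4.50, among 30 KO and 15 WT peaks assigned to it. None of the 5 lay inside the RefSeq gene (34787801 to 35049302 on chromosome 21). They were assigned through transcripts that reach to 36004667, so they lie upstream of the start that RefSeq gives. IL2RB, which encodes a chain of the interleukin-2 receptor, had 2, of 2982 and 1050 bp with folds of 4.00 and 2.37. The wider of them had the lowest q-value of all 772, 1.2e-31. IL2RB had 5 KO peaks over 5412 bases and no WT peak, and the nearest WT peak to either was 100908 bp away.

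HPSE2, which encodes heparanase 2, had 2 isolated wide peaks among 26 KO and 20 WT peaks that the authors assigned to it, while 41 KO and 32 WT peaks lay inside the RefSeq gene. By the authors' assignment, GSG1L, a gene of an auxiliary subunit of glutamate receptors, had 2 among 9 KO and 11 WT peaks. SLC2A13, a myo-inositol transporter gene, had 2 isolated wide peaks among 7 KO and 2 WT peaks, MIPOL1 had 2 among 18 and 8, and PLCB1, a phospholipase C gene, had 2 among 20 and 12. The gene AL591485.1 had 2 among 27 and 19. Of the PLCB1 peaks, 1 lay inside the RefSeq gene and 1 before its start. WT peaks were thus assigned to each of these 6 genes and to none of TYW3, HERC2P3 and IL2RB.

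C2H2 zinc finger genes, many of which are covered by H3K9me3, had overlapping wide peaks more often than protein-coding genes at large, and isolated ones at about the same share. Of 309 such genes outside the excluded stretches, 3 had an isolated wide peak, or 0.971% (0.331 to 2.82), close to the 1.03% of all protein-coding genes, while 97 (31.4%, 26.5 to 36.8) had an overlapping wide KO peak, against 11.8% of all. The second of these statements rests on few genes and depends on the limits. Where a WT peak had to be only 1000 bp away, the zinc finger share was 3.24% (1.77 to 5.85), against 1.28% of all protein-coding genes. At 20000 bp it was 0.324% (0.0572 to 1.81), against 0.687%. For peaks from 500 bp it was 7.77% (5.27 to 11.3), against 5.23%. With chromosome 19 and the other stretches kept it was 4.79% (3.33 to 6.83), against 1.14%. ZNF292 had 2 isolated wide peaks with folds of 3.73 and 4.67, inside the gene, between 7117 and 10168 bp from the 3′ end of the RefSeq gene (87155565 to 87265943 on chromosome 6), among 4 KO peaks and no WT peak. ZNF148 and ZNF684 had 1 each, among 7 KO and 4 WT peaks and 6 KO and 2 WT peaks.

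Among genes of H3K9 methylation, 1 of 22 had isolated wide peaks (4.55%, 0.807 to 21.8) and 6 had overlapping ones (27.3%, 13.2 to 48.2). Both intervals must be read against all protein-coding genes, of which 1.03% had an isolated and 11.8% an overlapping wide peak. The first interval includes that share. This was EHMT1, which encodes the H3K9 methyltransferase GLP. Its 2 isolated wide peaks on chromosome 9 spanned 137702185 to 137703409 and 137853672 to 137854679, with folds of 3.47 and 4.11 and the nearest WT peak 223892 and 72622 bp away. The first lay inside the RefSeq gene and the second beyond its end, and the authors assigned 4 KO peaks and no WT peak to EHMT1. Among 49 genes of colorectal cancer, 1 had an isolated wide peak (2.04%, 0.361 to 10.7, which includes 1.03%). This was the kinase gene BRAF, at a fold of 3.51, upstream of the RefSeq gene body. Among 33 cadherin genes it was CDH23 alone (3.03%, 0.537 to 15.3, which also includes 1.03%), at a fold of 4.03.

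None of the genes in the other 10 lists had an isolated wide peak. These were 369 olfactory receptor, 205 developmental transcription factor, 94 keratin-associated, 87 potassium channel, 79 histone, 53 clustered protocadherin, 41 collagen, 37 germline, 26 SNF2 translocase and 25 imprinted genes, HLTF being in the SNF2 list. With a count of 0 the upper Wilson bound was 1.03% for the olfactory receptors and 13.3% for the imprinted genes, so most of these lists are too short to be told from the 1.03% of all protein-coding genes. Among these lists, overlapping wide KO peaks were most frequent at germline (27.0%, 15.4 to 43.0), collagen (26.8%, 15.7 to 41.9) and SNF2 genes (23.1%, 11.0 to 42.1). They were found at 0 of the histone genes (upper Wilson bound 4.64%). All protein-coding genes stood at 11.8%, and the part of gene length in these shares was not tested.

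**Figure D5:**
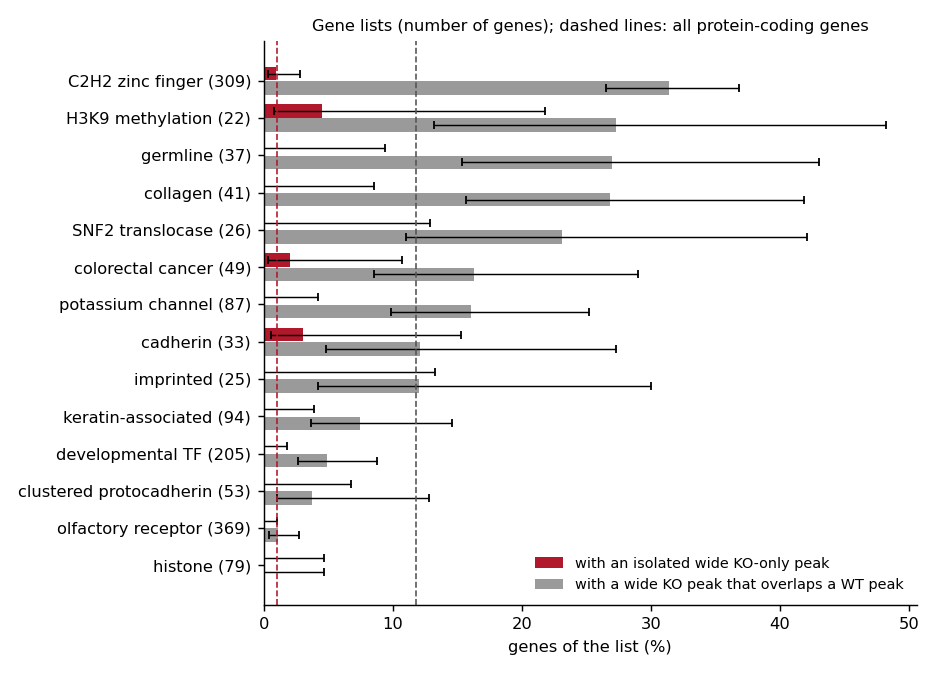
Share of the genes of each list (x axis, %) with an isolated wide KO-only peak (red) and with a wide KO peak that overlaps a WT peak (grey), with Wilson 95% intervals and the number of genes in brackets. Dashed lines mark all protein-coding genes at 1.03% (red) and 11.8% (grey); zinc finger genes reach 31.4% in grey and 0.971% in red.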

How the data were processed

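H3K9me3 ChIP and input chromatin of KO and WT 293T cells were sequenced, 3 libraries of each kind per genotype per the labels. The submitters' processing notes name HISAT2 and hg38. For the peak caller, its settings and the treatment of replicates, the sources used here name nothing. The deposited files are 2 peak lists with the authors' fold enrichment, a ratio, and the authors' q-value per peak, plus positions, a class and a gene. Both values were used only to describe, rank or filter peaks.

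Distances were taken between facing peak ends, and 0 means overlap, with Python 3.11.15, pandas 2.3.3 and numpy 2.4.6. The selection and distances were tested on simulated peaks. The Wilson interval was checked against scipy for a single count, and the Newcombe interval was not tested. Shares have Wilson intervals and differences Newcombe intervals. Genes follow the authors' gene column. Of 183 protein-coding names assigned to isolated wide peaks, 182 were found in RefSeq (GRCh38.p14). Of 4559 names compared, 99.5% had overlapping coordinates in both sources. The genes and peaks named are the highest by fold, width and number of peaks, those in promoters, those of the gene lists and those in the largest groups, plus HLTF. Genes outside that rule (DKK2, FMN1, ADAMTS18 and the further genes named with the motif) and the promoter motif were chosen after their values were seen. The members and lists were chosen with earlier results of these data known. The alternatives changed the width, distance, fold, list length, merging, excluded stretches, group distance and gene assignment.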

Additional observations from a re-analysis of the deposited data

How the results depend on the processing

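No paired analysis was possible because the files hold 1 list per genotype and no column per library, and no replicate could be left out. At a minimum width of 500 bp there were 4582 isolated peaks at 921 protein-coding genes, the ratio to isolated WT-only peaks was 7.30, 50.0% had another within 100 kb and 7.77% of zinc finger genes had one. At 2000 bp these values were 35, 12, 35 (against 1 WT peak), 0% and 0% (0.0681% of all genes), and the promoter difference reversed to -4.58 points. At a distance of 20000 bp there were 509 peaks, 121 genes and 0.324% of zinc finger genes (0.687% of all genes). At 1000 bp the last was 3.24%, and 25.7% of peaks had another within 100 kb. With peaks at or above the pooled median fold there were 1477 peaks, 398 genes, a ratio of 2.49, 23.5% with a neighbour and 3.56% of zinc finger genes (2.26% of all genes). That filter also removes weak WT peaks, which makes more KO peaks isolated. Merging peaks within 1000 bp gave 1962, 450, 7.52, 27.0% and 5.18% (2.55% of all genes). With no stretch left out, 28.7% had a neighbour and 4.79% of zinc finger genes had a peak. With lists of equal length the ratio was 3.56. The neighbour share was 14.6% for 50 kb and 38.2% for 500 kb. The other 30 values, including the remaining promoter differences (2.06 to 4.74 points) and all median folds (3.59 to 4.30), stayed within 1.5 times the count or within the interval or quartiles of the value reported. Depth is unknown, so WT cells may carry the mark, below the calling limit, where an isolated KO peak was called.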

Other observations

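The motif CTGATTGG was also counted in promoter windows met by KO peaks of any width. It was present in 14 of the 85 windows that met a KO peak and no WT peak (16.5%, 10.1 to 25.8), and in 0 of the 73 windows that met a WT peak (upper Wilson bound 5.0%). All windows stood at 3.72%. Besides the 4 windows of isolated wide peaks, the 14 were those of LINC02213, PCDHGA4, H2BC3, H3C3, LINC02930, LINC02953, ATF7IP, LINC02460, LINC01742 and LOC105373000. The motif was chosen on 9 of these windows, so the 14 are not independent of that choice, windows of neighbouring genes can share a peak, and membership of the stretch in a repeat family was not tested.

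Of the 32 genes with at least 2 isolated wide peaks, 32 had more peak bases in KO than in WT and 10 had no WT peak. Among all 327 genes with an isolated wide peak, 130 had no WT peak. The peaks were chosen for their width in KO and their distance from WT peaks. These counts are therefore largely fixed by the choice and say nothing further about the genes.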
